A study of Mus musculus with 9 samples.

Results

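Cells make their own fatty acids and cholesterol from acetyl-CoA, and 34 mouse genes of these routes were followed in bone marrow progenitors with and without nicastrin. They were chosen by name, with earlier results of these data known. They cover fatty acid synthesis, elongation and desaturation, the mevalonate and sterol route, its SREBP regulators, and the acyl-CoA synthetases. In the cytosol, citrate is cut to acetyl-CoA, which fatty acid synthase builds into saturated chains that elongases lengthen and desaturases give double bonds. The same acetyl-CoA enters the mevalonate pathway, which makes isoprenoid units, squalene and then sterols. SREBP transcription factors, which leave the endoplasmic reticulum when sterols run low, switch on most of these genes, and INSIG proteins hold them back. Of the 34 genes, 32 had a probe set with 1 gene symbol and the other 2 were not analysed here. The whole series held 18193 such genes, each read through its brightest probe set by mean log2 over the arrays.

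RNA was hybridized to 9 Affymetrix arrays, 3 per group, after amplification from bone marrow cells sorted from mice 6 weeks old. GMP NcstnKO cells came from mice with floxed Ncstn alleles and the Mx1-cre transgene (Ncstn flox/flox Mx1-cre+), a Cre recombinase under an interferon-inducible promoter that is not restricted to blood cells. GMP WT and LSK WT cells came from Ncstn flox/flox mice without Cre, and the labels call the mice littermates. All groups therefore carried floxed alleles, and all were given 3 doses of polyIC, a double-stranded RNA that induces interferon, at 20 µg per g of body weight from day 14 of life and were killed 4 weeks later. Nicastrin, encoded by Ncstn, is a subunit of gamma-secretase, the protease that releases the active part of Notch receptors. GMP, granulocyte-macrophage progenitors, were gated as lineage-negative, cKit+, Sca1-, CD34+ and FcgammaRII/III+, and LSK, the stem and multipotent progenitor gate, as lineage-negative, cKit+ and Sca1+. Cre and loss of Ncstn cannot be told apart in this design, since no group carried Cre without the floxed alleles. Whether each array came from 1 mouse or a pool is not given in the sources used here, so the p-values measure the spread between these samples, which may be technical.

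The targeted gene followed its labels: Ncstn averaged 7.78 ± 0.016 in NcstnKO GMP (log2 intensity, SD, n = 3 each), against 9.27 ± 0.034 in WT GMP and 9.05 ± 0.074 for LSK arrays. Between the WT gates, 7 of 8 GMP and primary granule genes were higher in GMP than in LSK, where 7.48% of all genes were. Of 8 stem cell genes 8 were lower, where 30.5% of all genes were, and both lists went as the gates imply. Late neutrophil genes were lower in GMP as well, 13 of 14, as were 11 of 13 lymphoid genes (intensities as deposited). Late neutrophil sums of linear intensity were 82136 to 112505 on LSK arrays and 39867 to 52042 in WT GMP. Median intensity was 65.4 to 68.6 on the 6 GMP arrays and 98.3 to 102.6 on the LSK arrays, so values set across the gates depend on scaling. The labelled sex went against Xist and Eif2s3y, a female and a male transcript, on 4 arrays. NcstnKO 2 and 3 are labelled male and had female transcripts, while WT GMP 2 and 3 are labelled female and had male transcripts. By transcripts the NcstnKO group was therefore all female, and WT GMP and LSK each held 1 female and 2 male arrays. The Actb 3′ to 5′ ratio, which rises when RNA is short, was 0.899 ± 0.14 in NcstnKO GMP and 0.577 ± 0.111 in WT GMP (log2, SD, n = 3 each; difference 0.322, p = 0.1 in a 2-sided exact permutation test, its lower limit with 3 arrays a group).

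NcstnKO GMP held higher messages for 3 enzymes of the mevalonate and sterol route and much lower messages for a desaturase and an acyl-CoA synthetase than WT GMP. In NcstnKO against WT GMP, 5 of 32 genes passed the test (limma over all genes, Benjamini-Hochberg adjusted p under 0.05), beside 5.70% of all 18193 genes. Msmo1, Pmvk and Cyp51 rose, against 2.44% of all genes that rose, and Scd1 and Acsl6 fell, against 3.26% that fell. The median log2 fold change was 0.05 over the 32 genes and 0.06 over all genes, so both medians lay close together. All 5 calls rest on single arrays or on the fit used, as given gene by gene below, and none was made when sex or the Actb ratio entered the fit.

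The sterol route held the 3 rises. Msmo1, the methylsterol oxidase that strips methyl groups from lanosterol products, stood at 9.69, 9.47 and 9.98 in NcstnKO GMP, against 8.70, 8.81 and 9.04 in WT GMP (log2 intensity per array). Every NcstnKO array lay above every WT GMP array, a 1.82-fold difference (log2 0.86, SE 0.15, limma adjusted p = 0.026). Cyp51, the lanosterol demethylase of an earlier step, read 10.23, 10.20 and 9.99 in NcstnKO GMP, against 9.37, 9.57 and 9.38 in WT GMP, again without overlap (log2 0.70, SE 0.16, limma adjusted p = 0.0413). Pmvk, the phosphomevalonate kinase, is an earlier enzyme of the mevalonate pathway. It read 9.94, 10.20 and 10.36 in NcstnKO GMP, against 9.74, 9.55 and 9.42 in WT GMP (log2 0.59, SE 0.13, limma adjusted p = 0.0381). The groups did not overlap, but NcstnKO 1 and WT GMP 1 lay close together.

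Leaving out 1 array ended most of these calls without changing their direction. Cyp51 lost its call in all 6 such fits, with adjusted p between 0.0741 and 0.144, and also with quantile normalization (0.0523). Msmo1 kept it only without NcstnKO 2, and without the other arrays its adjusted p lay between 0.0536 and 0.0952. Pmvk kept it without WT GMP 1 or NcstnKO 1, and lost it without WT GMP 2 (adjusted p = 0.101), WT GMP 3 (0.139), NcstnKO 2 (0.0825) or NcstnKO 3 (0.0899). A second Msmo1 probe set gave a log2 fold change of 1.22 (adjusted p = 0.0615 over all probe sets). The other Cyp51 probe sets gave 0.29 and -0.23 (adjusted p = 0.219 and 0.558), so the Cyp51 rise was read by 1 of its 3 probe sets. Pmvk had 1 probe set.

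Some neighbours of these enzymes had positive values that did not pass the threshold in the same comparison, Idi1 by the least. Idi1, the isomerase that supplies both isoprenoid units, had a log2 fold change of 0.60 (SE 0.15, limma adjusted p = 0.0509), with 11.30, 11.21 and 11.60 in NcstnKO GMP and 10.70, 10.84 and 10.77 in WT GMP. Its second probe set gave 0.76 (adjusted p = 0.0490 over all probe sets). Fdft1, squalene synthase, which commits isoprenoids to sterols, gave 1.01 (SE 0.32, limma adjusted p = 0.0948), with 10.70, 9.70 and 9.46 in NcstnKO GMP and 9.07, 9.17 and 8.60 in WT GMP. NcstnKO 1 stood well above the other NcstnKO arrays. A second Fdft1 probe set with less spread gave 0.63 (adjusted p = 0.0334 over all probe sets). Neither gene is counted among the 5, since the probe set was set by mean level. Idi1 was called when arrays were centred on their 75th percentile (adjusted p = 0.0404) and when the dimmest 40% of genes were left out (0.0356). It was also called with averaged probe sets and with a trended, robust variance model (0.0325). No fit without 1 array, with the replicate number as a block, with a sex covariate, with the Actb ratio or of the 2 groups alone called it. Mvd, the mevalonate diphosphate decarboxylase, gave 0.47 (SE 0.17, limma adjusted p = 0.145), and its arrays did not overlap.

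Over the whole route, 14 of 16 mevalonate and sterol genes had a positive log2 fold change, where 60.0% of all genes did. This list was chosen with earlier results of these data known, so its counts are no independent support. Their median was 0.25, against 0.06 over all genes. In 8 of the 16 every NcstnKO array lay above every WT GMP array, and in 0 every NcstnKO array lay below; among all genes 18.5% were separated upward and 13.4% downward. The 6 mevalonate genes had a median of 0.35 and the 10 genes from squalene on a median of 0.16. Both genes below 0 lie late in the route: Nsdhl, a sterol dehydrogenase, at -0.07, and Dhcr7, the reductase of the last step, at -0.10. The remaining values were Hmgcs1 0.23, Mvk 0.16, Fdps 0.14, Sqle 0.05, Lss 0.26, Hsd17b7 0.06, Ebp 0.06 and Sc5d 0.28 (log2, none called). The count of positive values was 12 to 15 when 1 array was left out and 10 with labelled sex in the fit. The median of the 16 genes was 0.14 both without WT GMP 1 and with labelled sex, 0.16 with averaged probe sets and 0.42 with transcript sex.

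**Figure D1:**
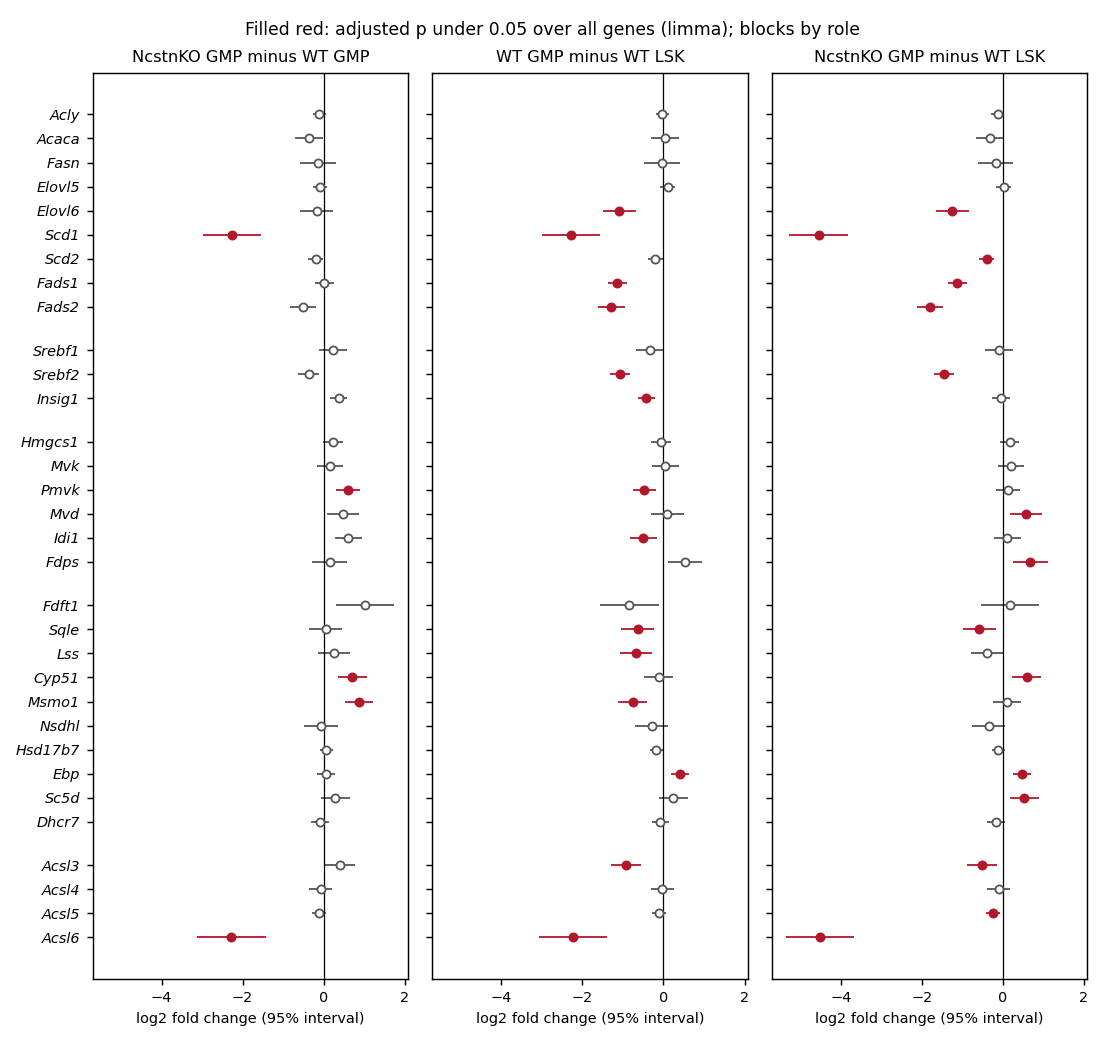
Log2 fold changes of the 32 genes with 95% intervals (x axis, log2 units, the same scale in each panel) for NcstnKO GMP minus WT GMP, WT GMP minus LSK and NcstnKO GMP minus LSK. Genes run down the page in blocks by role, and filled red points passed the test. In the left panel Msmo1, Cyp51 and Pmvk lie right of 0, and Scd1 and Acsl6 lie more than 2 log2 units to the left.

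The regulators did not move as a group. Insig1, which retains SREBP in the endoplasmic reticulum and is itself an SREBP target, was tight within groups, at 12.23, 12.21 and 12.22 in NcstnKO GMP and 11.84, 11.89 and 11.82 in WT GMP. Its groups did not overlap, and its log2 fold change of 0.37 missed the threshold (SE 0.09, limma adjusted p = 0.0541). It too was called with centring, without the dimmest genes and with the trended, robust model (0.0424, 0.0366 and 0.0239). Like Idi1, it was called in no fit without 1 array, with a sex covariate, with the Actb ratio or of the 2 groups alone. Srebf2, the SREBP gene that mainly drives sterol synthesis, gave -0.38 (SE 0.11, limma adjusted p = 0.0776), with 10.57, 10.60 and 10.44 in NcstnKO GMP and 10.72, 11.02 and 11.00 in WT GMP. Srebf1, whose products mainly drive fatty acid synthesis, gave 0.23 and its groups overlapped (SE 0.15, limma adjusted p = 0.389). Srebf2 and most genes of the sterol route thus had values on opposite sides of 0, without Srebf2 passing the test. A second Srebf2 probe set gave a log2 fold change near 0, as the plot of probe sets shows.

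The promoters of the 3 genes that rose and of 1 that fell are printed because SREBP proteins and their partner NF-Y bind short elements near such starts. Scd1, the other gene that fell, had no window in the source used, so Acsl6 alone is shown for the falls. Sequences are RefSeq windows on GRCm38.p6, from 250 bases before to 50 bases after the annotated start, read 5′ to 3′ on the strand of the gene. Capitals mark TCACNNCA, a loose form of the sterol regulatory element, and CCAAT, the NF-Y box, searched on both strands. The windows are chr8:64733529-64733828 (minus strand) for Msmo1, chr5:4104648-4104947 (minus strand) for Cyp51, chr3:89454291-89454590 (plus strand, 1 of 2 Pmvk windows) and chr11:54303574-54303873 (plus strand, 1 of 3 Acsl6 windows).
Msmo1: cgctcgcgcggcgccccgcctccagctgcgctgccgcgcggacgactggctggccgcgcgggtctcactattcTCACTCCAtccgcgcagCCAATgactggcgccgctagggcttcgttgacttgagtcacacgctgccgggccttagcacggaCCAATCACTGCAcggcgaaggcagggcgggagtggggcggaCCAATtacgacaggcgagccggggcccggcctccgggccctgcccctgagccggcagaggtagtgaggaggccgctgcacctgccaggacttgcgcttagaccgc
Cyp51: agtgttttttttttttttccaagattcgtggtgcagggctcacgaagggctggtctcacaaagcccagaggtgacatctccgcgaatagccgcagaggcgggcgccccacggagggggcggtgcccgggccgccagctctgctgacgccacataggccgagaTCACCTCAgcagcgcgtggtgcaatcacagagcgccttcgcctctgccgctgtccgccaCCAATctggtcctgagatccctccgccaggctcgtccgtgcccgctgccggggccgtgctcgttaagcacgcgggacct
Pmvk: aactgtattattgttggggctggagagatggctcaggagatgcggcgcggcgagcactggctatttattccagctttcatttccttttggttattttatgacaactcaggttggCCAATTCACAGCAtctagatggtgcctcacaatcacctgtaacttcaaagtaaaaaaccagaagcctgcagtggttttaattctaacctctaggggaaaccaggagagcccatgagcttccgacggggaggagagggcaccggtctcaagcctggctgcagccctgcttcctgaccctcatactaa
Acsl6: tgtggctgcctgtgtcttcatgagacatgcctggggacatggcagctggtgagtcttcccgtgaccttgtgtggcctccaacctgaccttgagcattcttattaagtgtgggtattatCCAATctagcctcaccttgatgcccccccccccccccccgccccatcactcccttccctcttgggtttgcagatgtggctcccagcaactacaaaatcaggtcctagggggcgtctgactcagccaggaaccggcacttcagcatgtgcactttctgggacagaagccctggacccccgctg

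The Msmo1 window held TCACNNCA at 177 and 92 bases before the start and CCAAT at 160, 96 and 55 bases before it, the element at 92 overlapping the box at 96. Cyp51 held TCACNNCA at 88 and CCAAT at 29 bases before the start. In Pmvk the CCAAT at 136 ran directly into the TCACNNCA at 131, while the second Pmvk window held neither. The Acsl6 window shown held a CCAAT at 132 and no TCACNNCA, another of its 3 windows held CCAAT, and none held TCACNNCA. Over the list, 26 of the 32 genes had 33 windows, and TCACNNCA lay in 12 of them (36.4%), against 13.8% of all 32851 windows. Among mevalonate and sterol genes it lay in 9 of 16 windows (56.2%), and CCAAT in 13 of 16 (81.2%), against 37.4% of all windows for CCAAT. The Sp1 box GGGCGG lay in 24 of 33 windows (72.7%), against 35.7% of all. The stricter TCACNCCAC lay in 1 of 33 windows, that of Hmgcs1, the enzyme that makes HMG-CoA, and in 1.24% of all. These matches describe letters, and binding was not measured.

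The largest differences in the list were both decreases. Scd1, the stearoyl-CoA desaturase that puts the first double bond into saturated chains, read 6.94, 5.74 and 6.11 in NcstnKO GMP, against 8.73, 8.16 and 8.69 in WT GMP. The groups stayed apart by more than a log2 unit, and Scd1 was 4.80-fold lower in NcstnKO GMP (log2 -2.26, SE 0.32, limma adjusted p = 0.0194). Acsl6, an acyl-CoA synthetase that loads long and polyunsaturated fatty acids onto coenzyme A and is known from human red cell precursors and brain, read 4.12, 3.97 and 4.18 in NcstnKO GMP, against 7.18, 5.38 and 6.53 in WT GMP. All NcstnKO readings lay below the background limit of their arrays (4.33, 4.38 and 4.57, the 95th percentile of 27 bacterial control probe sets), so Acsl6 was at least 3.83-fold lower there (limma adjusted p = 0.0230). It was also the gene of the list with the widest spread in WT GMP (SD 0.909). Both calls were kept in 4 of 6 fits that left out 1 array. Without WT GMP 3 the log2 fold changes were -2.18 for Scd1 and -2.20 for Acsl6 (adjusted p = 0.0952 and 0.0975), and without NcstnKO 3 they were -2.19 and -2.32 (0.0512 and 0.0593). A second Scd1 probe set averaged 3.25 in NcstnKO GMP and 3.20 in WT GMP, below the background limit in both, and the second Acsl6 probe set gave -0.81 near background (adjusted p = 0.130 over all probe sets).

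No measured paralogue of either gene passed the test. Scd2, the desaturase isoform best known from brain and developing skin, read 11.97, 12.01 and 12.14 in NcstnKO GMP, against 12.16, 12.28 and 12.28 in WT GMP. The arrays were just apart, and the log2 fold change of -0.20 did not pass (SE 0.08, limma adjusted p = 0.182). Acsl3, found on the endoplasmic reticulum and lipid droplets, gave 0.40 (SE 0.16, adjusted p = 0.175), with 9.22, 9.34 and 9.52 in NcstnKO GMP and 8.90, 9.20 and 8.79 in WT GMP. Acsl4, which prefers arachidonate, gave -0.08 with overlapping groups, at 10.93, 11.07 and 11.20 in NcstnKO GMP and 11.21, 11.02 and 11.20 in WT GMP (adjusted p = 0.745). Acsl5, linked to mitochondria and endoplasmic reticulum, gave -0.12, at 12.33, 12.46 and 12.48 in NcstnKO GMP and 12.57, 12.54 and 12.53 in WT GMP (adjusted p = 0.357). The 95% interval of the Acsl4 difference ran from -0.36 to 0.21, which leaves out a fall of the size seen for Acsl6.

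Of 9 fatty acid synthesis, elongation and desaturation genes, 8 had a negative log2 fold change in NcstnKO against WT GMP, where 7272 of all 18193 genes did, with a median of -0.17, and 1 was called. In 6 of the 9 every NcstnKO array lay below every WT GMP array, where 13.4% of all genes did. These 9 genes too were listed with earlier results of these data known. Fads2, which starts polyunsaturated fatty acid synthesis, read 9.54, 8.96 and 9.15 in NcstnKO GMP, against 9.77, 9.70 and 9.73 in WT GMP (log2 -0.51, SE 0.14, limma adjusted p = 0.0715), and was called only in the fit without NcstnKO 1. Acaca, the acetyl-CoA carboxylase that makes malonyl-CoA, gave -0.36 (SE 0.15, adjusted p = 0.186). Acly, the citrate lyase, gave -0.11, Fasn, the synthase itself, -0.15, Elovl5 -0.09 and Elovl6 -0.17, none called. Fads1, the desaturase after Fads2, did not differ measurably, with 9.32, 9.48 and 9.45 in NcstnKO GMP and 9.32, 9.49 and 9.40 in WT GMP (log2 0.01, 95% interval -0.22 to 0.24). The negative count was 6 to 9 of 9 over the alternatives run, and the median was -0.28 without WT GMP 1 and -0.11 without WT GMP 2.

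**Figure D2:**
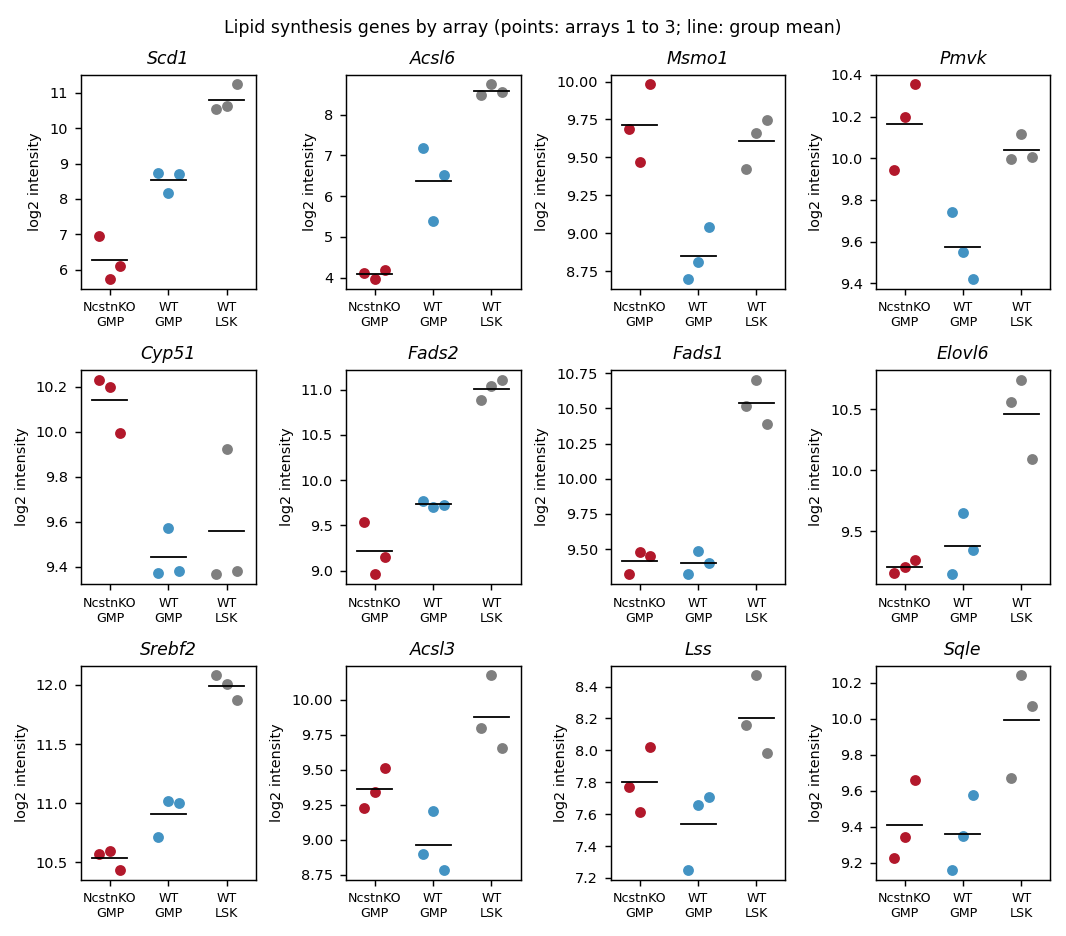
Log2 intensity on each array (y axis, its own range in each panel) for the 5 genes called in NcstnKO against WT GMP and the other genes with the largest WT GMP against LSK differences. NcstnKO GMP stands left, WT GMP in the middle and LSK right, points are arrays 1 to 3 and lines are group means. Scd1 and Acsl6 step down toward the left, while Msmo1 and Pmvk have their lowest values in WT GMP.

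Markers of red cell precursors moved with these decreases. Of 21 measured erythroid genes, 10 fell in NcstnKO against WT GMP and 0 rose (median log2 -1.57), where 3.26% of all genes fell and 2.44% rose, and their summed intensity was 14880 to 19619 in NcstnKO GMP, against 25972 to 43004 in WT GMP and 51452 to 62156 on LSK arrays. Of the defining markers, the Hba-a1 probe set used was at background in all groups and that of Epb42 in NcstnKO GMP. No other globin gene of the list was measured, so the level of globin RNA cannot be judged here. WT GMP 2, which had the lowest Acsl6 and Scd1 of its group, also had the lowest erythroid sum of its group. Resident macrophage genes fell in 4 of 12 cases, with sums of 3080 to 5355 in NcstnKO GMP and 3133 to 4798 in WT GMP, and Cd5l, Spic and Mertk were at background in NcstnKO GMP. Megakaryocyte genes fell in 3 of 11 cases. Without 1 array 0 to 12 erythroid genes were called lower, 0 to 3 resident macrophage genes and 0 to 2 megakaryocyte genes, and with either sex covariate or the Actb ratio 0 of each list were called. Without WT GMP 3, where all 3 counts were 0, the erythroid median was -1.43. Of 14 late neutrophil genes only Camp, which encodes a granule peptide, passed, rising. All 14 had a positive log2 fold change (median 0.61), where 60.0% of all genes did. In 7 every NcstnKO array lay above every WT GMP array, as in 18.5% of all genes. Late neutrophil sums were 56592 to 66979 in NcstnKO GMP, 39867 to 52042 in WT GMP and 82136 to 112505 on LSK arrays. Of 8 GMP and primary granule genes 0 were called, beside 5.70% of all genes. An unadjusted limma p under 0.05 was found for 0 of the 8, and for 4443 of all 18193 genes. The part of these cells in the lipid gene results was not tested, and in sorted bulk RNA fewer cells of a type and less RNA per cell cannot be told apart.

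**Figure D3:**
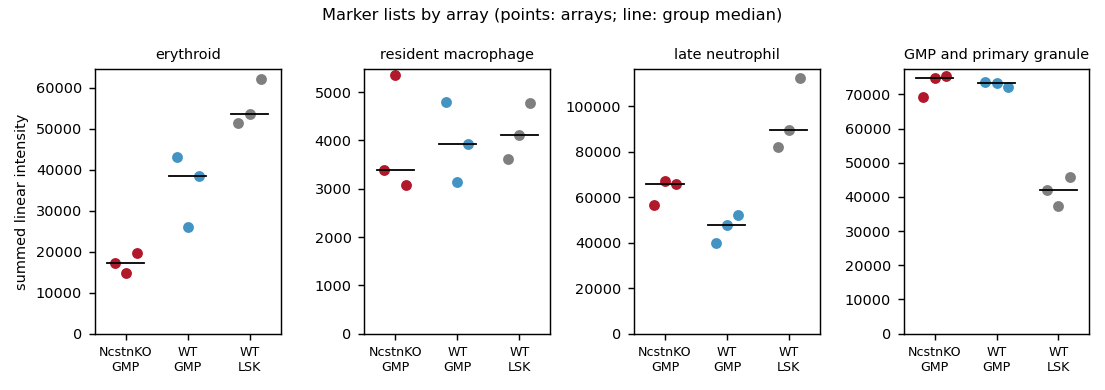
Summed linear intensity of 4 marker lists on each array (y axis from 0), with NcstnKO GMP left, WT GMP in the middle and LSK right, points for arrays and lines for group medians. Erythroid sums lie lowest in NcstnKO GMP and highest in LSK, and GMP and primary granule sums lie close together in both GMP groups.

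**Figure D4:**
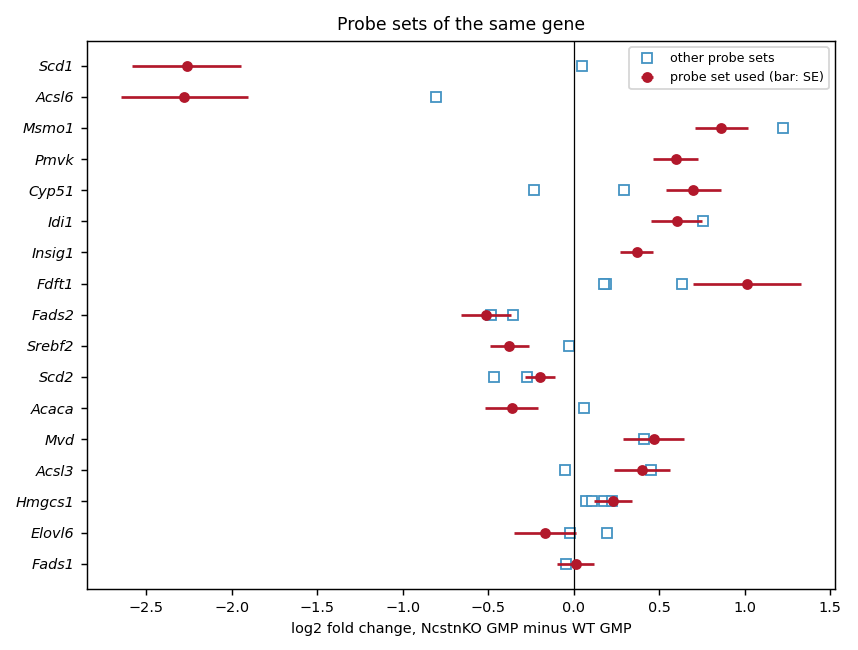
Log2 fold change of NcstnKO GMP minus WT GMP (x axis) for the probe set used (red, bar for the SE) and for any other probe sets of the same gene (blue squares). Msmo1, Idi1 and the brighter Fdft1 probe sets lie on the same side of 0, while those of Cyp51 and Scd1 do not stay together.

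In normal progenitors, GMP held lower messages than LSK for the desaturases Scd1, Fads1 and Fads2, for the elongase Elovl6, for the SREBP gene of the sterol branch and for the synthetases Acsl3 and Acsl6, under each scaling tried. In WT GMP against LSK, 14 of 32 genes passed (38.0% of all genes did), 13 lower (30.5% of all genes) and 1 higher (7.48%). The median was -0.24 over the 32 genes and -0.18 over all genes, so both moved alike on the deposited scale. Quantile normalization moved the median of all genes to 0.05 and the calls to 5 higher and 8 lower (19.8% and 15.4% of all genes). Centring each array on its 75th percentile moved them to 0.17, 8 higher and 7 lower (32.7% and 14.3% of all genes). Called in every scaling were Scd1, Acsl6, Fads1, Fads2, Elovl6, Srebf2 and Acsl3 as lower and Ebp, the sterol isomerase, as higher (log2 0.40 on the deposited scale, SE 0.10, limma adjusted p = 0.0119).

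Scd1 read 8.73, 8.16 and 8.69 in WT GMP, against 10.55, 10.64 and 11.24 in LSK, and was 4.85-fold lower (limma adjusted p = 0.000848). Acsl6 read 7.18, 5.38 and 6.53 in WT GMP, against 8.47, 8.75 and 8.56 in LSK (log2 -2.23, SE 0.37, limma adjusted p = 0.00199). Both genes therefore were lower between the gates as well as between the genotypes, and both comparisons use the same WT GMP arrays. Fads2 read 9.77, 9.70 and 9.73 in WT GMP, against 10.88, 11.04 and 11.11 in LSK (log2 -1.28, limma adjusted p = 0.000291). Fads1 read 9.32, 9.49 and 9.40 in WT GMP, against 10.52, 10.70 and 10.39 in LSK (log2 -1.13, adjusted p = 0.000119). Both polyunsaturated desaturases were thus lower in every WT GMP array by more than their spread. Elovl6, which lengthens saturated and monounsaturated chains, read 9.15, 9.65 and 9.35 in WT GMP, against 10.56, 10.74 and 10.09 in LSK (log2 -1.08, adjusted p = 0.00198). Acly, Acaca, Fasn and Elovl5, which work before or beside these steps, had values between -0.03 and 0.11 and were not called on the deposited scale. With centring Acly and Elovl5 were called higher (log2 0.32 and 0.46), as were 32.7% of all genes. Scd2 gave -0.20 (95% interval -0.39 to -0.01, adjusted p = 0.0851), with 12.42, 12.46 and 12.43 in LSK.

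Among regulators and synthetases, Srebf2 read 10.72, 11.02 and 11.00 in WT GMP, against 12.08, 12.01 and 11.88 in LSK (log2 -1.08, SE 0.11, limma adjusted p = 0.000185). Insig1 was lower by a smaller amount on the deposited scale (log2 -0.42, adjusted p = 0.00799) but not with centring (log2 -0.070, adjusted p = 0.557), and Srebf1 did not pass (log2 -0.32, adjusted p = 0.127). Acsl3 read 8.90, 9.20 and 8.79 in WT GMP, against 9.80, 10.17 and 9.65 in LSK (log2 -0.91, adjusted p = 0.00272). Acsl4 and Acsl5 gave -0.03 and -0.11 and were not called on that scale. With centring Acsl5 was called higher (log2 0.24), as were 32.7% of all genes.

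The direction of the mevalonate and sterol route between the WT gates depended on the scaling. On the deposited scale 5 of its 16 genes (31.2%) were lower in WT GMP than in LSK, beside 30.5% of all genes, and 1, Ebp, was higher, so the share of lower calls was that of all genes. With quantile normalization 0 of the 16 were lower and 5 were higher, where 15.4% of all genes were lower and 19.8% higher. The 5 were Mvk (log2 0.55), Mvd (0.64), Fdps (0.78), Sc5d (0.67) and Ebp (0.59). With centring 0 were lower and 5 higher again, with Dhcr7 in place of Mvd, where 14.3% of all genes were lower and 32.7% higher. The values that follow are on the deposited scale. Msmo1 read 8.70, 8.81 and 9.04 in WT GMP, against 9.43, 9.66 and 9.74 in LSK (log2 -0.76, SE 0.15, limma adjusted p = 0.00528). Lss, which closes the sterol rings, read 7.25, 7.66 and 7.71 in WT GMP, against 8.16, 8.47 and 7.98 in LSK (log2 -0.66, adjusted p = 0.0167). Sqle, the squalene epoxidase, read 9.16, 9.35 and 9.58 in WT GMP, against 9.67, 10.24 and 10.07 in LSK (log2 -0.63, adjusted p = 0.0239). Groups were apart in each, though WT GMP 3 and LSK 1 nearly met for Sqle. Idi1 and Pmvk were lower too (log2 -0.49 and -0.47, limma adjusted p = 0.0288 and 0.0192). None of these 5 lower calls was made with either other scaling. Those of Lss, Sqle, Idi1 and Pmvk also ended without 1 array. Idi1 lost its call in 5 of 6 such fits (adjusted p 0.0554 to 0.0844), Sqle without LSK 2, LSK 3, WT GMP 1 or WT GMP 2 (0.0631 to 0.0816), Pmvk without LSK 2, WT GMP 2 or WT GMP 3 (0.0556 to 0.0682), and Lss without LSK 2 (0.0549) or WT GMP 1 (0.0547). With the replicate number as a block, which the data allow for these gates, Fdps at 0.54 and Nsdhl at -0.29 were called as well (log2, adjusted p = 0.00732 and 0.0454). Hmgcs1, Mvk, Mvd, Cyp51, Sc5d and Dhcr7 lay between -0.12 and 0.25 and were not called on the deposited scale. Fdft1 had the lowest value of the 16 genes, at -0.84 (SE 0.32), and was not called in any scaling. Its second probe set gave -0.97 (limma adjusted p = 0.000432 over all probe sets). The other Cyp51 probe sets gave -0.76 and -0.34 (limma adjusted p = 0.00215 and 0.221 over all probe sets).

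NcstnKO GMP against LSK joins the genotype and the gate, and it shares arrays with both comparisons above. Here 15 of 32 genes passed (46.8% of all genes did), 5 higher (14.6%) and 10 lower (32.3%). With quantile normalization the split was 9 higher and 8 lower (29.9% and 20.9% of all genes), and with centring 14 and 6 (43.7% and 17.6%). Mvd (log2 0.57), Fdps (0.68), Cyp51 (0.58), Ebp (0.46) and Sc5d (0.53), all of the mevalonate and sterol route, were higher in every scaling (limma adjusted p = 0.0260, 0.0168, 0.0145, 0.00461 and 0.0222). Fdps makes farnesyl diphosphate and Sc5d is a late sterol desaturase. Ebp alone of these kept its call in all 6 fits without 1 array: without LSK 1 the others had adjusted p between 0.0518 and 0.0578. Fdps also lost it without NcstnKO 2 (0.0504) or NcstnKO 3 (0.0571), and Mvd and Sc5d without NcstnKO 3 (0.0769 and 0.0726). Cyp51 and Sc5d turned negative, at -0.15 and -0.16, when all probe sets of a gene were averaged. The other Cyp51 probe sets were called lower than in LSK, at -0.47 and -0.57 (limma adjusted p = 0.0148 and 0.0469 over all probe sets). The Cyp51 rise against LSK was thus read by 1 probe set alone.

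Scd1 stood 23.3-fold lower in NcstnKO GMP than in LSK (log2 -4.54, SE 0.32, limma adjusted p = 2.6e-05), and Acsl6 at least 17.9-fold lower (adjusted p = 4.8e-05). Fads2 (log2 -1.79), Srebf2 (-1.45), Elovl6 (-1.25) and Fads1 (-1.12) were also lower in every scaling. Scd2 was lower by a small amount on the deposited scale (log2 -0.40, SE 0.08, adjusted p = 0.00410), but its value was -0.016 with centring (adjusted p = 0.876), and averaged probe sets also ended the call (0.0806). Sqle (-0.58), Acsl3 (-0.52) and Acsl5 (-0.24) were called on the deposited scale and lost the call without 4, 4 and 5 of the 6 arrays in turn (adjusted p up to 0.0883, 0.0838 and 0.0966). Msmo1, Pmvk, Idi1 and Insig1, all lower in WT GMP than in LSK on the deposited scale, were not called here on the deposited scale, at 0.10 (95% interval -0.25 to 0.45), 0.13 (-0.16 to 0.41), 0.11 (-0.23 to 0.44) and -0.05 (-0.26 to 0.16). With quantile normalization Msmo1 and Pmvk were called higher (log2 0.44 and 0.40), where 29.9% of all genes were. With centring all 4 were called higher (0.49, 0.51, 0.49 and 0.33), where 43.7% of all genes were and their median was 0.26. Fdft1 gave 0.18 with an interval of -0.54 to 0.89, too wide to place it by that probe set. Its second probe set with less spread gave -0.33 (SE 0.11, limma adjusted p = 0.0406 over all probe sets).

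**Figure D5:**
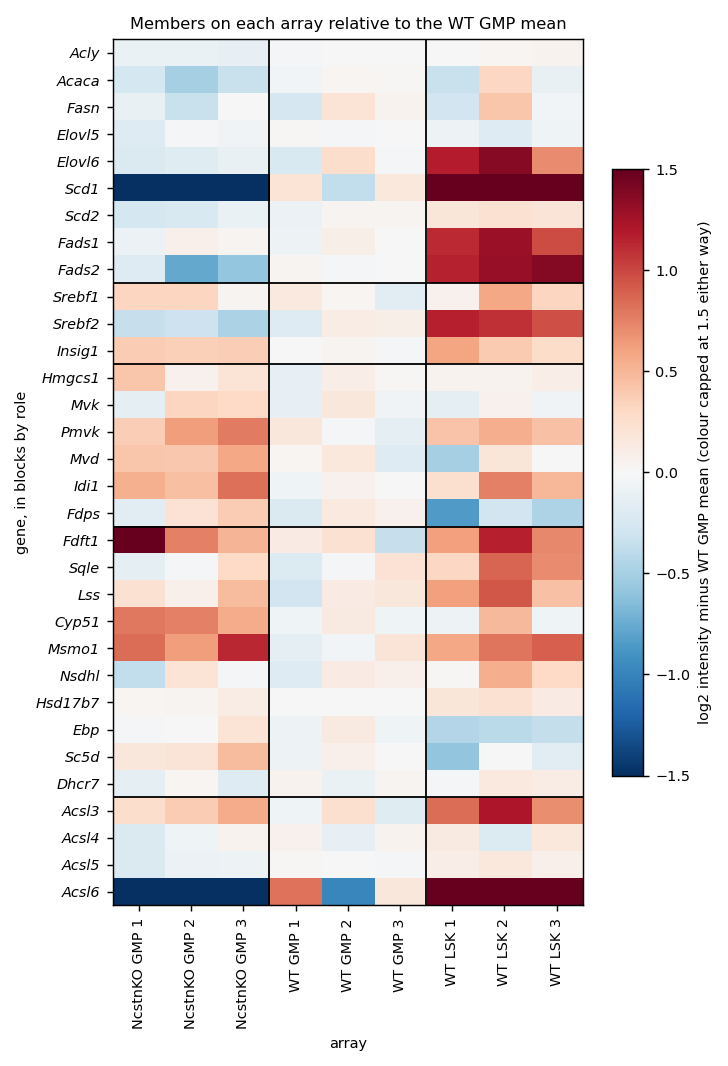
Log2 intensity of the 32 genes on each array minus the WT GMP mean of the gene (colour, red above and blue below, capped at 1.5), with NcstnKO GMP arrays left, WT GMP in the middle and LSK right. Scd1 and Acsl6 are at the blue cap in all NcstnKO arrays and at the red cap in all LSK arrays, and sterol genes tend to be redder in NcstnKO 3 and LSK 2 than in the other arrays of their groups.

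Arrays of 1 group often kept the same order over the genes of the sterol route. Within LSK, array 1 had the lowest value of the 3 in 14 of 16 mevalonate and sterol genes and array 2 the highest in 13. Within WT GMP, array 1 was lowest in 11 and array 2 highest in 10, and within NcstnKO GMP array 3 was highest in 10. Array 1 is the female one of LSK and of WT GMP by transcripts, and whether sex bears on this was not tested. The mean deviation from the group mean was 0.18 for LSK 2 and -0.18 for LSK 1 (log2). Array order and mean deviation were not computed over all genes. Median linear intensity of the whole array was 102.6, 99.8 and 98.3 on LSK 1, 2 and 3. It was 67.8, 67.3 and 68.6 on WT GMP 1, 2 and 3, and 67.9, 66.4 and 65.4 on NcstnKO 1, 2 and 3. Whether a shift of a whole array bears on these orders was not tested. Typical spread was otherwise ordinary: the median SD was 0.141 over the 32 genes in NcstnKO GMP, 0.135 for WT GMP and 0.183 for LSK, against 0.151, 0.123 and 0.145 over all genes. Fdft1 in NcstnKO GMP (SD 0.662), Acsl6 in WT GMP (0.909) and Scd1 in LSK (0.377) were the most variable.

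Other genes of lipid synthesis were listed with earlier results of these data known. Of 29 measured, 2 rose in NcstnKO against WT GMP and 0 fell, beside 2.44% and 3.26% of all genes. Their log2 fold changes ran from -0.58 to 1.13 (median 0.05). Unadjusted limma p was under 0.05 for 10 of the 29, and for 4443 of all 18193 genes. Ggps1, which makes geranylgeranyl diphosphate from farnesyl diphosphate for protein prenylation, read 9.82, 9.68 and 9.88 in NcstnKO GMP, against 9.05, 9.32 and 9.05 in WT GMP (log2 0.65, SE 0.11, limma adjusted p = 0.0231). Dgat1, an enzyme of the last step of triglyceride synthesis, read 10.48, 10.63 and 10.35 in NcstnKO GMP, against 9.90, 9.58 and 9.52 in WT GMP (log2 0.82, SE 0.18, adjusted p = 0.0388). Both groups were apart, yet with 1 array left out Dgat1 lost its call in 6 of 6 fits and Ggps1 in 4 (adjusted p up to 0.143 and 0.0980). Between WT GMP and LSK, 1 of the 29 was higher and 11 were lower on the deposited scale (7.48% and 30.5% of all genes). With quantile normalization 3 were higher and 4 lower (19.8% and 15.4%), and with centring 10 higher and 3 lower (32.7% and 14.3%). The lower calls were led by Lpin1, a phosphatidate phosphatase (log2 -1.32, SE 0.19, adjusted p = 0.000936), Ggps1 (-0.72), Gpam, the first acyltransferase of glycerolipid synthesis (-0.84), and Slc25a1, the mitochondrial citrate carrier (-0.52). Of these 4, only Slc25a1 lost its call with the other scalings. NcstnKO GMP against LSK gave 3 higher and 9 lower (14.6% and 32.3% of all genes). It gave 7 higher and 4 lower with quantile normalization (29.9% and 20.9%), and 13 higher and 3 lower with centring (43.7% and 17.6%).

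Of 11 genes of sterol storage, transport and the LXR pathway, 3 were lower in NcstnKO than in WT GMP and 0 higher, beside 3.26% and 2.44% of all genes. Npc1, which moves cholesterol out of lysosomes, read 8.15, 8.45 and 8.26 in NcstnKO GMP, against 8.77, 8.97 and 8.93 in WT GMP (log2 -0.60, SE 0.11, limma adjusted p = 0.0286). The sterol exporters Abcg1 and Abca1, both LXR targets, gave -0.75 and -0.98 (SE 0.17 and 0.23, adjusted p = 0.0399 and 0.0482). Abca1 read 6.30, 5.61 and 6.49 in NcstnKO GMP, against 6.97, 7.23 and 7.12 in WT GMP, without overlap. With 1 array left out, Abca1 lost its call in 6 of 6 fits, Abcg1 in 5 (all but that without WT GMP 1) and Npc1 in 4. All 3 calls were also lost with either sex covariate, in the fit of these 2 groups alone, without the arrays whose transcripts contradict the labelled sex (Abcg1 at -0.36) and with the Actb ratio (Abcg1 at -0.44). Quantile normalization and centring ended the call of Abca1 alone (adjusted p = 0.0731 and 0.0503). Both exporters were also lower in WT GMP than in LSK (log2 -2.04 for Abca1 and -0.96 for Abcg1, adjusted p = 0.000324 and 0.00251), as were 2 further genes of this list (4 of 11 in all, beside 30.5% of all genes). With centring 3 of the 11 were lower and 5 higher, beside 14.3% and 32.7% of all genes.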

How the data were processed

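Gene lists and members were chosen with earlier results of these data known. Amplification started from 5 ng of RNA with the Nugen Ovation system, per the labels' protocols. The authors deposited linear intensities for 45101 probe sets (3.79 to 23176), for which the submitters' processing notes name RMA without a version. Log2 was taken. Of the 34945 probe sets with 1 symbol in GEO's platform annotation, the one with the highest mean over 9 arrays stood for each of 18193 genes. RefSeq (GRCm38.p6) matched all 32 symbols.

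The test was the moderated 2-sided contrast of limma 3.58.1 (eBayes after lmFit, R 4.3.3), with 1 mean per group, all 9 arrays in the fit and 6 residual degrees of freedom, adjusted by Benjamini-Hochberg over all genes at 0.05. The fit was tested on simulated data. The number of arrays limits the precision. Per-array values were given for members called between the genotypes, for the 10 largest called gate differences and for the Scd and Acsl families, and beyond that rule for Idi1, Fdft1 and Insig1, chosen after their values were seen. Other lists name up to 4 called genes with the smallest p.

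Replicate numbers may pair WT GMP with LSK: deviations of same-numbered arrays correlated across genes at 0.219, 0.238 and 0.291. For NcstnKO and WT GMP they correlated at -0.092, 0.004 and 0.022. The alternatives were scaling, probe set choice, a filter on dim genes, samples in the fit, single arrays left out, the replicate block, sex, the Actb ratio and the variance model. The fit on female arrays alone was added after the data were seen.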

Additional observations from a re-analysis of the deposited data

How the results depend on the processing

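Counts of called genes by limma changed most in NcstnKO against WT GMP. Of 32 genes, 5 were called, 0 to 4 without 1 array (0 without WT GMP 3 or NcstnKO 3), and 0 in each of these fits: the 2 groups alone, either sex covariate, 4 contradicting arrays left out, the Actb ratio, and female arrays alone. With centring, without the dimmest genes and with the trended, robust model 7 were called, 5 higher and 2 lower, Idi1 and Insig1 being added. Unadjusted p under 0.05 held for 14 of 32 genes as fitted, 10 and 11 without WT GMP 3 and NcstnKO 3, 14 with the 2 groups alone, 13 and 12 with labelled and transcript sex, 5 without the contradicting arrays, 7 with the Actb ratio and 8 in female arrays. Among all 18193 genes, 4443 had an unadjusted p under 0.05 as fitted. All genes called numbered 1037, and 2 without WT GMP 3, 145 without NcstnKO 3, 2 with either sex covariate and 0 with the Actb ratio. The 5 genes kept their direction in all 19 alternatives. With the replicate block, 4 of 32 were called between the genotypes (Pmvk lost, adjusted p = 0.0699), 16 between WT GMP and LSK and 15 between NcstnKO GMP and LSK (Acsl5 lost, Nsdhl gained), and numbers do not pair the genotypes.

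Other pathway genes gave 2 calls between the genotypes, 1 with every probe set tested alone, 0 to 2 without 1 array, and 0 with averaged probe sets, the 2 groups alone, the replicate block, either sex covariate, contradicting arrays left out, the Actb ratio or female arrays, where 3 to 10 had an unadjusted p under 0.05. Between WT GMP and LSK, members gave 14 calls, 6 without contradicting arrays, 9 with the Actb ratio and 4 in female arrays, and other pathway genes 12 calls, 7 with quantiles, 6 with labelled sex, 2 without contradicting arrays and 0 in female arrays. Between NcstnKO GMP and LSK, members gave 15 calls, 6 without contradicting arrays, 9 with the Actb ratio and 9 in female arrays, and other pathway genes 12, 4 without contradicting arrays and 5 in female arrays. Counts without 1 array are given with their ranges only where they moved by over 1.5 times. The Actb difference was 0.241 to 0.385 without 1 array.

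Sign changes were found among small log2 differences, and the cause was not tested. In NcstnKO against WT GMP, averaged probe sets gave Fads1 -0.017 and Sc5d -0.070. Without 1 array, Fads1 ran from -0.029 (WT GMP 1) to 0.058 (NcstnKO 1), Sqle from -0.076 (NcstnKO 3) to 0.16, Ebp from -0.016 (NcstnKO 3) to 0.13, and Nsdhl from -0.20 to 0.088 (NcstnKO 1). Labelled sex gave Ebp -0.0041, Fads1 -0.045, Fdps -0.17, Mvk -0.047 and Sqle -0.20, and transcript sex gave Fasn 0.13 and Nsdhl 0.16. Without contradicting arrays, Elovl6 was 0.011, Fads1 -0.0048, Fasn 0.14 and Mvk -0.027. The Actb ratio gave Acsl4 0.14, Elovl5 0.029, Nsdhl 0.16 and Srebf1 -0.13, and female arrays gave Elovl6 0.063, Fasn 0.10 and Nsdhl 0.13. In NcstnKO GMP against LSK, centring gave Acsl5 0.14 and Insig1 0.33, averaged probe sets gave Cyp51 -0.15, Msmo1 -0.20 and Sc5d -0.16, contradicting arrays left out gave Pmvk -0.10, and without 1 array Idi1 ran from -0.021 (LSK 1) to 0.24, Insig1 from -0.12 to 0.035 (LSK 1) and Msmo1 from -0.030 (NcstnKO 3) to 0.22.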

Other observations

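Mitochondrial fatty acid oxidation genes, which run the opposite way to synthesis, were listed beside the synthesis genes. Of 20, 0 were called in NcstnKO against WT GMP by limma, beside 5.70% of all genes. Unadjusted limma p was under 0.05 for 6 of the 20, and for 4443 of all 18193 genes. The median log2 fold change was 0.04, against 0.06 over all genes. Between WT GMP and LSK, 1 was higher and 5 were lower, beside 7.48% and 30.5% of all genes. Quantile normalization gave 3 higher and 3 lower (19.8% and 15.4% of all genes), and centring 9 higher and 2 lower (32.7% and 14.3%). Etfb, a subunit of the flavoprotein that takes electrons from acyl-CoA dehydrogenases, averaged 13.49 in WT GMP and 12.99 in LSK (log2 0.50, SE 0.07, limma adjusted p = 0.00118). Ppard, a nuclear receptor that turns on oxidation genes, gave -0.98 (SE 0.17, adjusted p = 0.00244), and Eci2, an isomerase for unsaturated chains, -0.58 (SE 0.11, adjusted p = 0.00374). Ppargc1a, a coactivator of mitochondrial genes, was not above background in WT GMP and was at least 4.55-fold lower than in LSK (adjusted p = 3.34e-05). With quantile normalization Ppard lost its call, and with centring Eci2 did. NcstnKO GMP against LSK gave 5 higher and 6 lower (14.6% and 32.3% of all genes). It gave 7 and 3 with quantile normalization (29.9% and 20.9%), and 12 and 1 with centring (43.7% and 17.6%).

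Vldlr, a receptor for triglyceride-rich lipoproteins, averaged 7.08 in WT GMP and 11.36 in LSK (log2 -4.27, SE 0.43, adjusted p = 0.000181), a larger difference than for any of the 32 synthesis genes in that comparison. In NcstnKO GMP it averaged 8.09, against 7.08 in WT GMP, and did not pass (log2 1.01, adjusted p = 0.191).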
